A study of Mus musculus with 43 samples.

Results

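CD8 T cells of the spleen, the lymphocytes that kill infected or transformed cells on recognising peptide bound to MHC class I, were compared between mice given interferon alpha and untreated mice. The arrays were chosen by their titles, which gave 2 interferon and 3 baseline arrays of CD8 T cells, 5 of the 43 arrays analysed. The series profiled immune cells of male C57BL/6 mice on whole-transcript arrays (Affymetrix Mouse Gene 1.0 ST), to ask how different cell types respond to interferon alpha. The interferon group was CD8 T cells taken 2 h after 10000 U of interferon alpha were injected under the skin of mice aged 6 weeks. The baseline group was CD8 T cells of mice of the same strain, sex and age without treatment, and no vehicle injection is labelled. Both groups were sorted as CD8+, with no further marker given, so naive and memory CD8 T cells were measured together.

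Several labels bear on the comparison. The source of baseline arrays 1 and 2 is given as blood although their titles name the spleen. Their preparation is worded as dissociation with staining, whereas baseline array 3 and both interferon arrays carry the wording of dissociation with digestion. Whether arrays of a group stem from different mice is not labelled. The p-values therefore reflect the spread between arrays, which may be technical. This spread was taken over all 18 groups of the series (9 cell types, with and without interferon), and not from the CD8 arrays alone. In a bulk sample of sorted cells, a lower value cannot be told apart between fewer cells that make the RNA and less RNA per cell.

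The defining marker of the sort was bright on all 5 arrays. Cd8a, a chain of the CD8 coreceptor, stood at 11.47 and 11.80 on the interferon arrays, against 11.84, 11.89 and 11.76 on the baseline arrays, in log2 intensity, the scale of every level below. Cd4 lay between 6.19 and 6.42 on the 5 arrays, against 11.39 to 11.93 on the CD4 T cell baseline arrays. Ncr1, a defining receptor of NK cells, lay between 4.77 and 5.19, against 13.29 to 13.60 on the NK cell baseline arrays. Over the 9 measured NK cell markers the summed intensity was 658 and 568 on the interferon arrays, against 603, 956 and 608 at baseline. On the NK cell baseline arrays it was 42861 to 44803. Baseline array 2 was thus the highest, as in Fcer1g at 8.33, against 7.39 and 7.24 on baseline arrays 1 and 3. Baseline array 2 also stood apart in genes of dendritic cells, among them H2-Aa of MHC class II at 9.39, while the other 4 arrays lay between 5.99 and 6.76. Over the 11 dendritic cell markers the summed intensity was 1935 and 2322 on the interferon arrays, against 3326, 4750 and 2767 on the baseline arrays. That list holds Ccr9, which lay between 10.14 and 11.26 on the 5 arrays, against 8.48 to 8.63 on the dendritic cell baseline arrays. Without Ccr9, left out after its values were seen, the sum was 808 and 687 on the interferon arrays, against 872, 2573 and 808 on the baseline arrays, and 35842 to 38752 on the dendritic cell baseline arrays. B cell markers summed to 1062 and 774 on the interferon arrays, against 1110 to 1209 on the baseline arrays, macrophage markers to 927 and 720, against 968 to 1144, and the CD8 T cell markers themselves to 30628 and 29693, against 31374 to 34707. All 3 sums were lower on both interferon arrays than on every baseline array, and their part in the falls below was not tested. Cd79b was the brightest of the 9 measured B cell markers, at 8.89 and 8.29 on the interferon arrays, against 9.36, 9.46 and 9.19 at baseline. The median change over the 9 was 0.11, so the lower sum did not hold for the list as a whole. By limma 0 of the 11 dendritic cell markers were raised or lowered, with 0 higher and 2 lower at an unadjusted p below 0.05. Without baseline array 2 the calls given below were 179 raised and 55 lowered genes. The correlation over all genes was 0.983 between the 2 interferon arrays and 0.991 to 0.993 among the baseline arrays, with 0.973 to 0.981 between treatments, and every CD8 array had its nearest array in its own group.

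Type I interferons bind the IFNAR receptor on nearly all cells, and the kinases JAK1 and TYK2 then activate the transcription factor complex ISGF3. This complex binds the interferon-stimulated response element (ISRE) in promoters and turns on a broad set of antiviral genes. In CD8 T cells the cytokine is known to arm antiviral defence, to support effector differentiation and to hold cells in lymphoid tissue.

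Of 19752 genes, 198 were raised (1.00%) and 63 were lowered (0.319%), where both words mean a limma p-value below 0.05 after Benjamini-Hochberg adjustment over all genes and a change of at least 1 on the log2 scale, a 2-fold change. An adjusted p below 0.05 at any size was reached by 522 genes (2.64%). The median change was 1.68 over the raised genes and -1.13 over the lowered genes, beside -0.01 over all genes. The balance depended on the threshold, as 647 genes were higher and 1525 lower at an unadjusted p below 0.05 with no limit on size. Sizes were lopsided, as 67 genes rose by at least 2, 16 by at least 3 and 5 by at least 4, while the largest fall was -1.54. Of the raised genes, 44 had a baseline mean under 7, and 8 of these reached a mean of at least 9 after interferon: Ifit3b, Mx2, Mx1, Iigp1, Phf11a, Ifitm3, Gdap10 and Gzmb.

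All 198 raised genes were higher on both interferon arrays than on every baseline array, and all 63 lowered genes were lower. Such separation was common, with 11.9% of all genes higher, 18.9% lower and 30.9% in either direction, so by itself it says little about a gene. It was also a condition for the named rises and falls, so a lack of overlap given for them below was fixed by the choice. In both sets array 1 was mostly the lower of the 2 interferon arrays. Array 2 was the higher one in 172 of the 198 raised genes, with a median of -0.45 for array 1 minus array 2, and array 1 was the lower one in 47 of the 63 lowered genes (median -0.20). Without interferon array 2, 152 genes were raised, 126 of them among the 198, and 65 were lowered, 40 of them among the 63. Leaving out array 1 left 199 raised genes, 178 of them among the 198, and 41 lowered genes, 19 of them among the 63.

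Most falls were no longer called when the baseline was array 3 alone. Baseline array 3 carries the wording of the interferon arrays. Against it alone the 198 genes had a median change of 1.67 and the 63 a median of -1.08. Both sets had been called with array 3 among the baseline arrays. Both interferon arrays lay beyond baseline array 3 in every one of these genes, which the separation given above already implies. With 1 baseline array the median standard error over all genes was 0.271 in place of 0.198, and 125 genes were raised and 5 lowered, 122 and 4 of them the same. A term for the wording, estimated over the cell types, gave 173 raised and 54 lowered genes, 170 and 45 of them the same, with medians of 1.57 and -1.12 over the 198 and the 63.

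**Figure D1:**
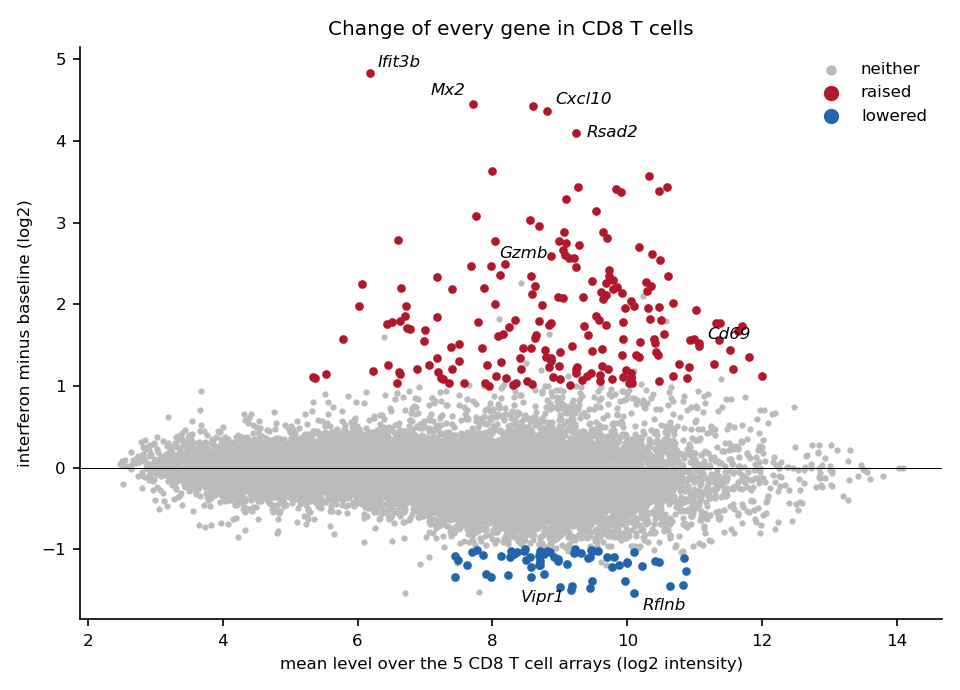
Change of every gene in CD8 T cells (interferon minus baseline, log2) against its mean level over the 5 arrays (log2 intensity), with the 198 raised genes in red and the 63 lowered genes in blue. Rises reached 4.83 for Ifit3b and occurred at low as well as high levels, while falls went no further than -1.54 for Rflnb and came from genes of middle to high level.

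The gene lists used from here on were chosen with earlier results of these data known. Their counts stand beside 1.00% raised and 0.319% lowered of all genes. Counts at an unadjusted p below 0.05 stand beside 647 higher and 1525 lower of all 19752 genes. Antiviral effectors were among the largest rises. Of 34 measured genes of this list, 29 were raised and none was lowered, with a median change of 2.36. Rsad2, which encodes viperin, an enzyme that makes a chain-terminating nucleotide against viral polymerases, stood at 11.45 and 11.96 on the interferon arrays, against 7.49, 7.72 and 7.60 on the baseline arrays (log2 change 4.10, SE 0.262, adjusted p = 7.54e-13). Mx1, a dynamin-like GTPase that blocks the replication of influenza and other viruses, stood at 10.91 and 11.61 on the interferon arrays, against 6.85, 6.74 and 6.92 on the baseline arrays, a 21.5-fold rise (log2 change 4.43, SE 0.310, adjusted p = 2.49e-12). Its relative Mx2 was at 9.95 and 10.82 on the interferon arrays, against 5.79, 5.87 and 6.11 on the baseline arrays (log2 change 4.46, SE 0.273, adjusted p = 4.48e-13). In each of the 3 genes the lowest interferon array lay above the highest baseline array by a wide margin, and array 2 was the higher interferon array.

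The IFIT genes encode proteins that bind viral RNA lacking the cap modifications of host mRNA. Ifit3b stood at 8.86 and 9.30 on the interferon arrays, against 4.41, 3.85 and 4.48 on the baseline arrays, which at 28.5-fold was the largest rise of any named gene (log2 change 4.83, SE 0.326, adjusted p = 1.65e-12). Ifit3 stood at 12.48 and 12.47 on the interferon arrays, against 8.59, 8.94 and 9.16 on the baseline arrays (log2 change 3.58, SE 0.261, adjusted p = 5.97e-12). Ifit1 was at 12.37 and 12.64 on the interferon arrays, against 8.89, 9.11 and 9.35 on the baseline arrays (log2 change 3.38, SE 0.398, adjusted p = 3.43e-07). Ifit3 and Ifit3b are close copies on chromosome 19, and how far their probes share signal was not tested. Ifit2 rose less, at 10.52 and 11.05 on the interferon arrays, against 7.98, 7.66 and 8.07 on the baseline arrays (log2 change 2.88, SE 0.269, adjusted p = 1.95e-09). Ifitm3, a membrane protein that blocks the fusion of entering viruses, had 9.47 and 9.74 on the interferon arrays, against 6.56, 7.26 and 5.77 on the baseline arrays (log2 change 3.08, SE 0.462, adjusted p = 3.15e-05), and the baseline arrays spread more widely here than in the IFIT genes. Its relatives Ifitm1 and Ifitm2 had changes of 0.15 (adjusted p = 0.969) and 0.07 (adjusted p = 0.995).

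Effectors that act on RNA rose as well. Eif2ak2, the kinase PKR that halts translation on double-stranded RNA, stood at 9.87 and 10.88 on the interferon arrays, against 7.33, 7.27 and 7.44 on the baseline arrays (log2 change 3.03, SE 0.341, adjusted p = 1.32e-07). Oas2, which makes the oligoadenylates that activate RNase L, stood at 10.94 and 11.91 on the interferon arrays, against 8.27, 8.23 and 8.34 on the baseline arrays (log2 change 3.15, SE 0.215, adjusted p = 1.65e-12). Its relatives Oasl2, Oasl1, Oas1a and Oas3 rose by 2.81, 2.61, 2.36 and 2.35. Isg20, an exonuclease that degrades viral RNA, stood at 11.81 and 12.07 on the interferon arrays, against 8.53, 8.52 and 8.64 on the baseline arrays (log2 change 3.38, SE 0.231, adjusted p = 1.65e-12). Cmpk2, a mitochondrial nucleotide kinase encoded beside Rsad2, stood at 11.02 and 11.64 on the interferon arrays, against 7.79, 7.87 and 8.03 on the baseline arrays (log2 change 3.43, SE 0.253, adjusted p = 7.16e-12). The interferon arrays lay above the baseline arrays in all of these, and those of Eif2ak2 and Oas2 were about 1 apart from each other. Tor3a, a torsin ATPase, rose by 2.75 and Ddx60, a helicase that promotes RNA sensing, by 2.57. The 5 members that were neither raised nor lowered were Apobec3 at 0.85 (adjusted p = 0.00526), Zc3hav1 at 0.52, Ifi44l at 0.11 and the 2 Ifitm genes above.

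**Figure D2:**
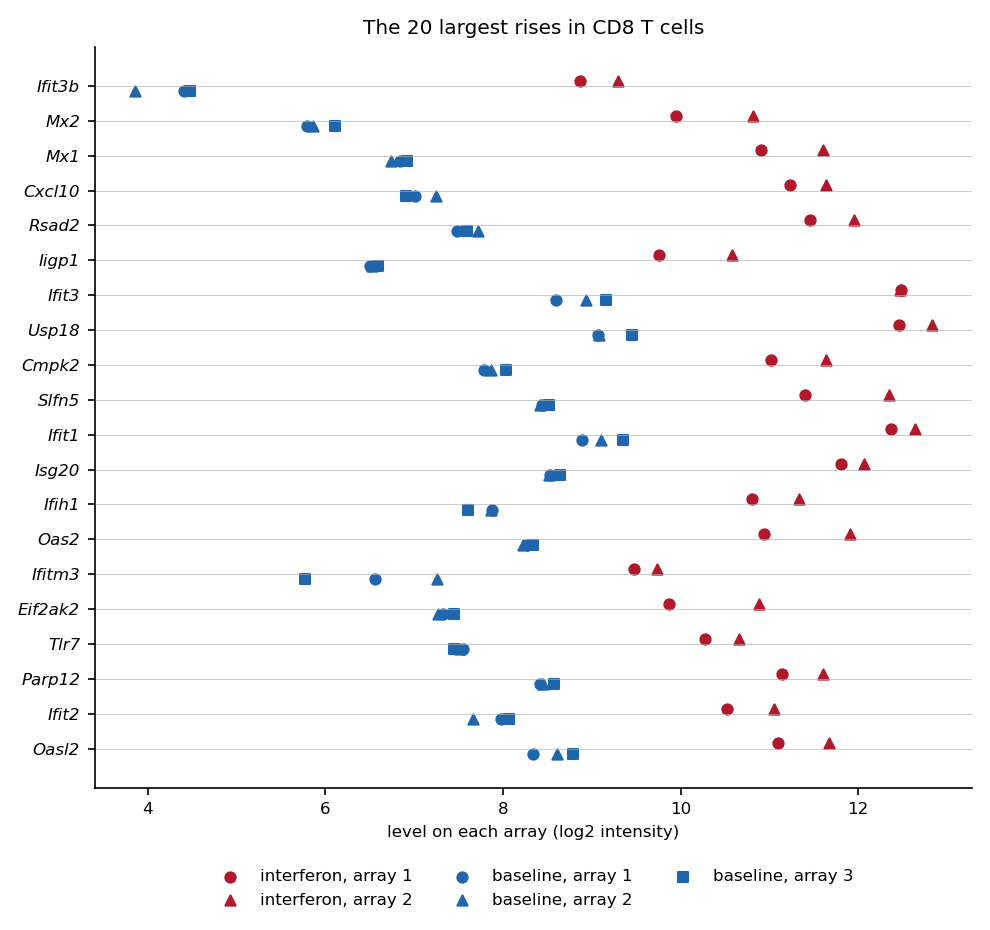
Level of the 20 largest rises on each of the 5 CD8 T cell arrays (log2 intensity), with interferon arrays in red and baseline arrays in blue, and symbols for the array number. Red and blue points do not overlap in any of the 20 genes, which was a condition for naming a gene. In Ifit3b the interferon arrays sit at 8.86 and 9.30 above baseline arrays between 3.85 and 4.48.

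Promoters of the raised genes often carried the letters of the ISRE. The letters GAAA, then 2 of any kind, then GAAA were searched on both strands from 250 bases before to 50 after the gene start in RefSeq promoters of build GRCm38.p6, which matched 155 of the 198 raised genes. The motif occurred in 46 of these (29.7%), in 0 of 46 lowered genes with a promoter and in 3.63% of the genes neither raised nor lowered, beside 3.44% of all 32851 promoter windows. Among the 40 named rises it occurred in 17 of 31 (54.8%), and among the other raised genes in 29 of 124 (23.4%). Raised genes that were also raised in all the other 8 cell types held it in 35 of 71 promoters (49.3%), and those raised in at most 5 types in 1 of 31 (3.23%). The 63 matches in raised genes had a median position of -58 from the start, and 53 of them lay wholly before it. A match describes letters and is no measurement of binding.

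The full windows of 4 of the largest rises are shown for the place of the motif, with matches on either strand in capitals, each written 5′ to 3′ on the gene's strand. They are Ifit3b (chr19:34607707-34608006, plus strand), Ifit3 (chr19:34583279-34583578, plus strand), Cxcl10 (chr5:92348840-92349139, minus strand) and Rsad2 (chr12:26456403-26456702, minus strand).
Ifit3b: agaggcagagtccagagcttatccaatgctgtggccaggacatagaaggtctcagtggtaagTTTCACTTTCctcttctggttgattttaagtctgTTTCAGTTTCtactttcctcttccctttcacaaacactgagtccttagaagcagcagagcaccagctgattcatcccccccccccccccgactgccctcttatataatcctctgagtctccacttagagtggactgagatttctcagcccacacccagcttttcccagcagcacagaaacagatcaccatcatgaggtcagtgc
Ifit3: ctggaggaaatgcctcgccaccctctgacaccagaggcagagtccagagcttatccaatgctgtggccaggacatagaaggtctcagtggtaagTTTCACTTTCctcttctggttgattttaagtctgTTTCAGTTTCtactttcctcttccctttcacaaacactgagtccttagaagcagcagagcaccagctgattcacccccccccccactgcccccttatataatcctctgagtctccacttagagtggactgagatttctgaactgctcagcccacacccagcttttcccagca
Cxcl10: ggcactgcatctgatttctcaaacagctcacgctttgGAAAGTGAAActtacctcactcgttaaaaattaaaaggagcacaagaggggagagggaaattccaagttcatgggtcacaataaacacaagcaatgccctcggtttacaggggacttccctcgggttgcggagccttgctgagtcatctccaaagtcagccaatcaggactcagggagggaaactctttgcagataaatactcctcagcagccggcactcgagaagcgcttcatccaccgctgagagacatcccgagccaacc
Rsad2: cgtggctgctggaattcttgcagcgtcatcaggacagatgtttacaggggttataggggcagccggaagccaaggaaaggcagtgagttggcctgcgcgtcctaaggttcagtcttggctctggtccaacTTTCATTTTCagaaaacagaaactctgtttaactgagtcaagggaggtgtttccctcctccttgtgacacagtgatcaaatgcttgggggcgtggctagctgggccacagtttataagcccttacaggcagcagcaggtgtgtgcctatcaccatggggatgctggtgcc
Ifit3b and Ifit3 carried the same pair of matches in opposite orientation to the gene, starting at -188 and -154 in Ifit3b and at -156 and -122 in Ifit3. Cxcl10 had 1 match in the gene's orientation at -213, and Rsad2 1 in the opposite orientation at -120.

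For the next 8 named rises chosen in the same way, the match is shown in capitals to set the spellings side by side. It has 12 bases on each side, or fewer where the window ends as in Ifih1. Ifit1 lies at chr19:34640773-34640825, plus strand. The others are Slfn5 (chr11:82951935-82951968, plus strand), Ifih1 (chr2:62646206-62646235, minus strand), Ifitm3 (chr7:141010704-141010754, minus strand), Eif2ak2 (chr17:78882533-78882566, minus strand), Gbp5 (chr3:142496757-142496790, plus strand), Phf11a (chr14:59297530-59297563, minus strand) and Jaml (chr9:45079135-45079168, plus strand).
Ifit1: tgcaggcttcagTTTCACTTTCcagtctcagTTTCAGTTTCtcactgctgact
Slfn5: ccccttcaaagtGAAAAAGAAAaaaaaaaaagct
Ifih1: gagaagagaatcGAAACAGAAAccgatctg
Ifitm3: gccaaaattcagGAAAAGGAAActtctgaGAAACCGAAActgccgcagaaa
Eif2ak2: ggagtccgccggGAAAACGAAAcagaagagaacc
Gbp5: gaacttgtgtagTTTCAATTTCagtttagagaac
Phf11a: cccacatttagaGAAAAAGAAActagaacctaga
Jaml: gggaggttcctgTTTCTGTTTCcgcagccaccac
Ifit1 and Ifitm3 each carried 2 matches. Those of Ifih1, Ifitm3 and Eif2ak2 lay after the annotated start, at 32, at 2 and 19, and at 18 bases, and the others before it. Jaml and Phf11a held a match at -36 and -29.

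The ISG15 pathway attaches the ubiquitin-like protein ISG15 to other proteins and, with ADP-ribosyltransferases and E3 ligases, tunes the response. Of 14 measured genes, 11 were raised and none lowered (median 1.51). Usp18, which removes ISG15 and also blocks the IFNAR receptor, stood at 12.46 and 12.83 on the interferon arrays, against 9.07, 9.08 and 9.46 on the baseline arrays (log2 change 3.44, SE 0.257, adjusted p = 8.23e-12). Parp12, an ADP-ribosyltransferase that restricts viruses, stood at 11.14 and 11.60 on the interferon arrays, against 8.41, 8.45 and 8.58 on the baseline arrays (log2 change 2.89, SE 0.229, adjusted p = 3.98e-11). Herc6, the main ISG15 ligase of mice, had 11.34 and 12.52 on the interferon arrays, against 9.28, 9.25 and 9.40 on the baseline arrays (log2 change 2.62, SE 0.337, adjusted p = 2.02e-06), so that its interferon arrays were further apart than its 3 baseline arrays. The other 3 genes, Trim34a at 0.98, Trim14 at 0.93 and Uba7 at 0.87, had adjusted p = 0.000845, 0.0297 and 0.00696 but stayed under a 2-fold change.

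All 9 measured interferon-inducible GTPases, which attack vacuoles that hold intracellular pathogens, were raised, with changes between 1.63 and 3.63. Iigp1 stood at 9.76 and 10.58 on the interferon arrays, against 6.51, 6.53 and 6.59 on the baseline arrays (log2 change 3.63, SE 0.246, adjusted p = 1.65e-12), and Gbp5, a guanylate-binding protein that promotes inflammasome assembly, stood at 10.36 and 10.93 on the interferon arrays, against 7.86, 7.79 and 7.96 on the baseline arrays (log2 change 2.78, SE 0.266, adjusted p = 3.31e-09). Of 7 schlafen genes, which restrain lymphocyte growth and viruses, 5 were raised (median 1.81). Slfn5 stood at 11.40 and 12.35 on the interferon arrays, against 8.44, 8.42 and 8.52 on the baseline arrays (log2 change 3.42, SE 0.324, adjusted p = 2.74e-09), with array 2 again the higher interferon array, and Slfn3 rose by 2.49. Slfn2, known in mice for keeping T cells quiescent, had a change of 0.99 (adjusted p = 0.000687), under the 2-fold limit, and Slfn4 one of 0.37 (adjusted p = 0.845). Both gene families hold close copies, so signal may be shared between members.

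Sensors of foreign nucleic acid were raised in 7 of 17 measured genes, with none lowered (median 0.85). Ifih1, which encodes MDA5, a cytosolic sensor of long double-stranded RNA, stood at 10.80 and 11.34 on the interferon arrays, against 7.88, 7.87 and 7.60 on the baseline arrays (log2 change 3.29, SE 0.283, adjusted p = 3.57e-10). Tlr7, the endosomal receptor for single-stranded RNA, stood at 10.28 and 10.66 on the interferon arrays, against 7.55, 7.52 and 7.45 on the baseline arrays (log2 change 2.96, SE 0.302, adjusted p = 1.38e-08). Dhx58, which encodes LGP2, stood at 10.88 and 10.96 on the interferon arrays, against 8.33, 8.10 and 8.16 on the baseline arrays (log2 change 2.73, SE 0.232, adjusted p = 2.70e-10). In none of the 3 did the groups overlap. Zbp1, a sensor of Z-form nucleic acid that can trigger necroptosis, rose by 2.34, Tlr3 by 1.86, Ddx58, the RIG-I gene, by 1.49 and Ifi203 by 1.36. Adaptors gave no call, with Myd88 at 0.85 (adjusted p = 0.106), Mavs at -0.49 (0.360) and Ticam1 at -0.54 (0.116). Aim2, a sensor of cytosolic DNA, stood at 8.16 and 8.68 on the interferon arrays, against 8.78, 8.48 and 8.66 on the baseline arrays (log2 change -0.22, adjusted p = 0.972).

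Of 21 measured receptors, kinases, STATs and IRFs, 3 were raised and none lowered (median 0.05). Stat2, the STAT that is particular to type I and III interferons, stood at 10.39 and 11.31 on the interferon arrays, against 8.52, 8.54 and 8.62 on the baseline arrays (log2 change 2.29, SE 0.238, adjusted p = 2.30e-08). Irf7, the factor that amplifies interferon production, stood at 11.50 and 11.86 on the interferon arrays, against 9.52, 9.49 and 9.36 on the baseline arrays (log2 change 2.22, SE 0.239, adjusted p = 5.08e-08). Irf1, a factor that drives MHC class I and other immune genes, stood at 11.25 and 11.45 on the interferon arrays, against 10.17, 10.09 and 10.42 on the baseline arrays (log2 change 1.12, SE 0.227, adjusted p = 0.00230). The last rise was near the 2-fold limit. Irf9, the DNA-binding part of ISGF3, had a change of 0.73 (adjusted p = 0.0845). The receptor chains Ifnar1 and Ifnar2 had changes of 0.04 (95% interval -0.38 to 0.46) and -0.12 (-0.47 to 0.23). Jak1 had a change of -0.24 (adjusted p = 0.934) and Tyk2 one of -0.56 (0.280). Among 20 feedback inhibitors, Usp18, Sp140 (1.47) and Socs1 (1.08), a JAK inhibitor, were raised, and Dusp1, described with the falls, was lowered. Socs1 stood at 10.06 and 9.89 on the interferon arrays, against 9.0, 8.91 and 8.76 on the baseline arrays, with no overlap, as in all 198 raised genes.

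CD8 T cells also raised genes through which they act on other cells. Cxcl10, the chemokine that draws CXCR3-bearing T and NK cells, stood at 11.23 and 11.63 on the interferon arrays, against 7.01, 7.25 and 6.91 on the baseline arrays, a 20.7-fold rise (log2 change 4.37, SE 0.301, adjusted p = 1.66e-12). Of 24 cytotoxic effectors, 3 were raised and none lowered (median 0.16), beside 1.00% raised of all genes. Gzmb, the granule protease granzyme B, stood at 9.99 and 8.93 on the interferon arrays, against 7.24, 7.38 and 6.34 on the baseline arrays (log2 change 2.47, SE 0.449, adjusted p = 0.000576). Its arrays did not overlap between groups, but array 1 was the higher interferon array and baseline array 3 lay about 1 below the others. Without interferon array 1 the change was 1.94 (adjusted p = 0.0785), the only one of 15 alternatives in which Gzmb was not raised. Tnfsf10, the death ligand TRAIL, stood at 10.35 and 10.84 on the interferon arrays, against 8.35, 8.54 and 8.62 on the baseline arrays (log2 change 2.09, SE 0.273, adjusted p = 2.57e-06). Ifng, the type II interferon, stood at 8.22 and 7.75 on the interferon arrays, against 6.91, 6.63 and 6.38 on the baseline arrays (log2 change 1.34, SE 0.223, adjusted p = 0.000156). Gzma, granzyme A, had 7.36 and 7.35 on the interferon arrays, against 5.69, 5.73 and 5.84 on the baseline arrays. Its log2 change of 1.60 did not pass (SE 0.491, adjusted p = 0.0771). The SD of its CD8 arrays was 0.01 with interferon and 0.08 at baseline, while the SE rests on the spread over all 18 groups. Perforin, encoded by Prf1, was at 9.32 and 9.24 on the interferon arrays, against 9.39, 9.78 and 9.48 on the baseline arrays (log2 change -0.27, adjusted p = 0.833).

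Among 18 activation and costimulation genes, 3 were raised (median 0.02). Cd69, an early activation marker that opposes S1PR1 and so keeps lymphocytes in tissue, stood at 11.87 and 12.01 on the interferon arrays, against 10.45, 10.51 and 10.14 on the baseline arrays (log2 change 1.58, SE 0.247, adjusted p = 6.47e-05). Cd86, a CD28 ligand best known on antigen-presenting cells, stood at 9.68 and 10.04 on the interferon arrays, against 7.78, 7.74 and 7.67 on the baseline arrays (log2 change 2.13, SE 0.271, adjusted p = 1.67e-06). Slamf7, a SLAM family receptor, stood at 9.71 and 9.65 on the interferon arrays, against 8.0, 8.73 and 8.29 on the baseline arrays (log2 change 1.34, SE 0.290, adjusted p = 0.00467). The groups did not overlap in any of the 3, as in all 198 raised genes. The dendritic cell markers without Ccr9, given above, were nearly equal on interferon array 1 and baseline arrays 1 and 3, and their part in the Cd86 rise was not tested. Of 14 inhibitory receptors and ligands, Cd274, the gene of PD-L1, was the 1 raised gene, at 10.65 and 11.70 on the interferon arrays, against 8.74, 8.64 and 9.24 on the baseline arrays (log2 change 2.30, SE 0.290, adjusted p = 1.45e-06). Pdcd1, the receptor PD-1, stood at 8.12 and 7.45 on the interferon arrays, against 6.89, 6.92 and 6.76 on the baseline arrays and passed the adjusted p (0.0185) with a change of 0.93. Ccrl2, an atypical receptor for chemerin, rose by 2.79 and Jaml, an adhesion molecule of the junctional family, by 2.67.

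Of 18 measured genes of the MHC class I pathway, 2 were raised and none lowered (median 0.47). H2-T24, a nonclassical class I gene, stood at 11.01 and 11.56 on the interferon arrays, against 9.26, 9.21 and 9.45 on the baseline arrays (log2 change 1.98, SE 0.220, adjusted p = 1.04e-07). Psmb8, an immunoproteasome subunit, stood at 10.75 and 10.54 on the interferon arrays, against 9.68, 9.64 and 9.47 on the baseline arrays (log2 change 1.04, SE 0.230, adjusted p = 0.00590). The light chain B2m stood at 13.25 and 13.38 on the interferon arrays, against 13.24, 13.27 and 13.19 on the baseline arrays, a change of 0.08 (95% interval -0.15 to 0.32). The peptide transporter gene Tap1 had a change of 0.48 and the transactivator Nlrc5 one of 0.74 (adjusted p = 0.285 and 0.244).

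**Figure D3:**
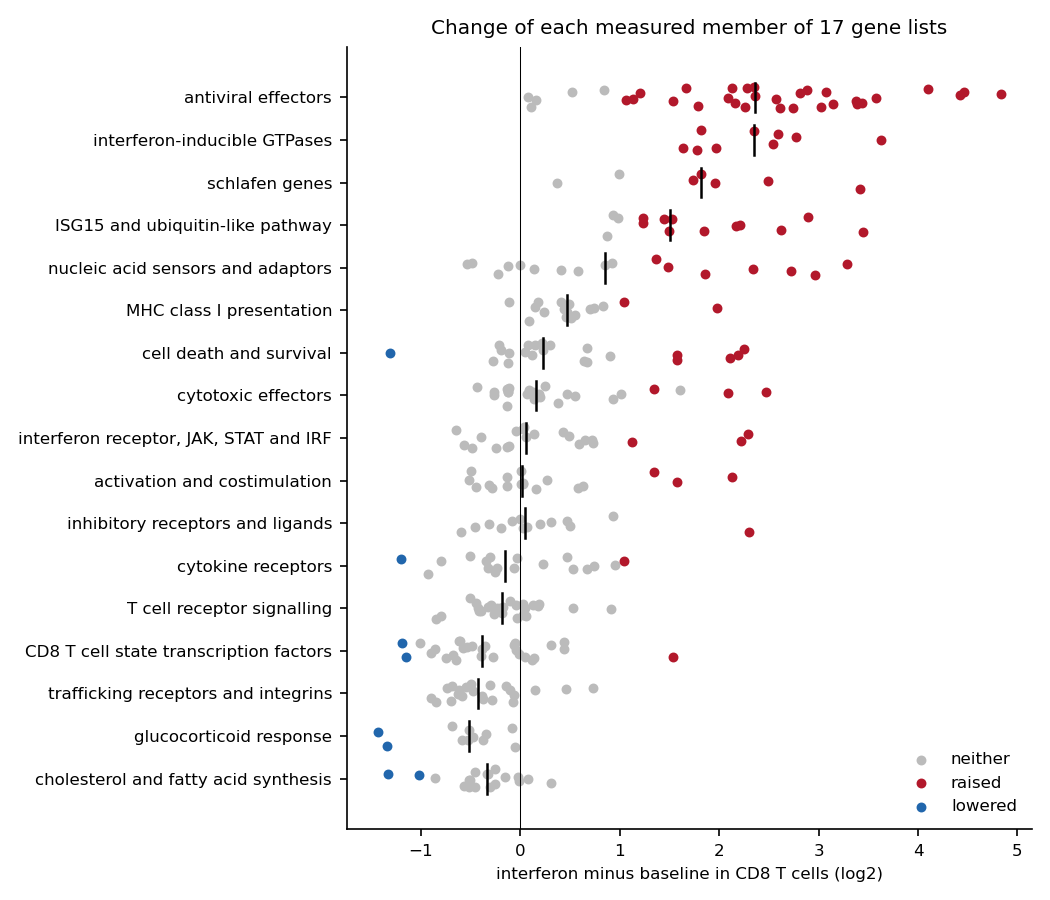
Change in CD8 T cells (interferon minus baseline, log2) of each measured member of 17 gene lists, 1 point a gene, red for raised, blue for lowered, grey for neither, with a black bar at the list's median. Antiviral effectors, GTPases, schlafen genes and the ISG15 pathway lie to the right, with medians from 1.51 to 2.36, while most other lists straddle 0 with a few single genes standing out.

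Genes of T cell identity and movement showed a different picture. Of 28 measured transcription factors of CD8 T cell state, 1 was raised and 2 were lowered (median -0.39), beside 1.00% and 0.319% of all genes. Eomes, the T-box factor of effector and memory CD8 T cells, stood at 11.14 and 11.52 on the interferon arrays, against 9.56, 10.05 and 9.77 on the baseline arrays (log2 change 1.53, SE 0.257, adjusted p = 0.000186). Its relative Tbx21, the gene of T-bet, had a change of 0.44 (adjusted p = 0.414). Klf3, a repressor of the Krüppel-like family, fell to 9.74 and 9.82 on the interferon arrays, against 11.00, 10.94 and 10.85 on the baseline arrays (log2 change -1.15, SE 0.256, adjusted p = 0.00620). Klf13 fell to 8.98 and 9.35, against 10.61, 10.26 and 10.19 at baseline (log2 change -1.19, SE 0.331, adjusted p = 0.0436), and was called in 7 of 15 alternatives. Foxo1, a factor of naive T cell quiescence and homing, was at 9.56 and 10.02 on the interferon arrays, against 10.82, 10.75 and 10.82 on the baseline arrays, and its change of -1.01 did not pass (adjusted p = 0.0822). Id3, linked to memory precursors, had 7.41 and 6.68 on the interferon arrays, against 7.96, 8.47 and 7.39 on the baseline arrays and a change of -0.90 (adjusted p = 0.0382), with interferon array 1 overlapping baseline array 3.

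Of 22 trafficking receptors and integrins 0 were raised or lowered by limma, with 1 higher and 10 lower at an unadjusted p below 0.05. Their median change was -0.43, beside -0.30 in CD4 T cells and -0.35 in regulatory T cells. Of the 22 genes, 2 passed the adjusted p, S1pr4 at -0.85 (0.00969) and Selplg at -0.63 (0.0173). S1pr1, the receptor that guides T cells out of lymphoid organs, stood at 10.57 and 10.91 on the interferon arrays, against 11.35, 11.37 and 11.26 on the baseline arrays (log2 change -0.59, SE 0.257, adjusted p = 0.341). Ccr7, the homing receptor for lymph nodes, stood at 11.64 and 11.62 on the interferon arrays, against 12.20, 12.16 and 12.04 on the baseline arrays (log2 change -0.50, adjusted p = 0.322). In both genes the interferon arrays lay below all baseline arrays, as in 18.9% of all genes, by less than a 2-fold change. Of 26 genes of T cell receptor signalling 0 were raised or lowered (median -0.18, with 2 higher and 4 lower at an unadjusted p below 0.05), and Cd3e had a change of -0.18 (adjusted p = 0.895). Among 18 cytokine receptors, Il12rb1, a chain of the receptors of the IL-12 family, was raised at 8.86 and 9.07 on the interferon arrays, against 7.91, 7.81 and 8.06 on the baseline arrays (log2 change 1.04, SE 0.178, adjusted p = 0.000244). Il6ra, the binding chain of the IL-6 receptor, was lowered at 9.25 and 9.72 on the interferon arrays, against 10.72, 10.68 and 10.69 on the baseline arrays (log2 change -1.21, SE 0.265, adjusted p = 0.00549). Il27ra at -0.93 and Tgfbr2 at -0.80 passed the adjusted p (0.0303 and 0.0291) without reaching a 2-fold change.

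The named falls were smaller, and their baseline means lay between 7.98 and 11.40. Rflnb, which encodes refilin B, a binder of filamin, fell to 9.39 and 8.97 on the interferon arrays, against 11.11, 10.47 and 10.57 on the baseline arrays, a 2.90-fold fall (log2 change -1.54, SE 0.275, adjusted p = 0.000465). Vipr1, the receptor for vasoactive intestinal peptide, fell to 8.22 and 8.31, against 9.83, 9.82 and 9.64 at baseline (log2 change -1.49, SE 0.201, adjusted p = 4.63e-06). Another Vipr1 probe set had a change of -0.33, and the mean of both gave -0.91. Piezo1, a mechanosensitive ion channel, stood at 8.17 and 8.94 on the interferon arrays, against 10.21, 10.01 and 9.88 on the baseline arrays (log2 change -1.48, SE 0.352, adjusted p = 0.0124), and all 3 of its probe sets were lower after interferon, by -0.89 to -1.48. Smad7, the inhibitor of TGF-beta signalling, stood at 8.02 and 8.22 on the interferon arrays, against 9.70, 9.67 and 9.38 on the baseline arrays (log2 change -1.46, SE 0.317, adjusted p = 0.00476). Dtx1, a Notch-linked ubiquitin ligase tied to T cell anergy, stood at 9.70 and 9.82 on the interferon arrays, against 11.49, 11.22 and 10.94 on the baseline arrays (log2 change -1.45, SE 0.282, adjusted p = 0.00135). The groups did not overlap in these 5 genes, as the choice of named genes required. In Dtx1, Vipr1, Piezo1 and Smad7 baseline array 3 was the lowest of the baseline arrays, as in 39 of the 63 lowered genes. It was the highest of them in 92 of the 198 raised genes. The part of the preparation wording in this was not tested.

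Regulators of RNA decay and signalling were among them. Zfp36l2, which drives the decay of AU-rich mRNAs and guards T cell quiescence, stood at 10.12 and 9.82 on the interferon arrays, against 11.43, 11.44 and 11.33 on the baseline arrays (log2 change -1.43, SE 0.307, adjusted p = 0.00421). Dusp1, a phosphatase that switches off MAP kinases, stood at 7.12 and 7.23 on the interferon arrays, against 8.43, 9.05 and 8.07 on the baseline arrays (log2 change -1.34, SE 0.300, adjusted p = 0.00644), with baseline array 2 well above the others, and against baseline array 3 alone its change was -0.90. Bcl2l11, which encodes the pro-apoptotic protein BIM, stood at 7.09 and 7.81 on the interferon arrays, against 8.82, 8.82 and 8.62 on the baseline arrays (log2 change -1.31, SE 0.272, adjusted p = 0.00301), with interferon array 1 the lower. Thra, the thyroid hormone receptor alpha, stood at 7.21 and 7.03 on the interferon arrays, against 8.63, 8.12 and 8.52 on the baseline arrays (log2 change -1.30, SE 0.239, adjusted p = 0.000660). Thra and the lysosomal sulfamidase gene Sgsh (log2 change -1.19) were the 2 of the 30 named falls that were called in all 15 alternatives, with ranges of -1.46 to -1.10 and -1.38 to -1.0. Vipr1, Thra, Sgsh and Pacs2, an adaptor of membrane traffic, were the 4 still called against baseline array 3 alone, and 27 of the 30 were called with the preparation term. No named fall changed sign in any alternative. For the alternatives that only leave out arrays, the condition of no overlap fixed this in advance.

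The remaining named falls ran between -1.45 and -1.14. They included Lrrc8b (-1.45), a subunit of volume-regulated anion channels, Bcl9l (-1.39), a coactivator of Wnt signalling, and Adgre5 (-1.27), the adhesion receptor CD97. Sgms1 (-1.19) makes sphingomyelin, Tpcn1 (-1.19) is an endolysosomal cation channel, and Kif21b (-1.16) is a kinesin. Setd1b (-1.21) is a histone methyltransferase and Git1 (-1.14) a scaffold that acts on Arf GTPases. Setd1b, Kif21b and Klf13 were the 3 not called with the preparation term, at -1.15, -1.07 and -1.01.

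**Figure D4:**
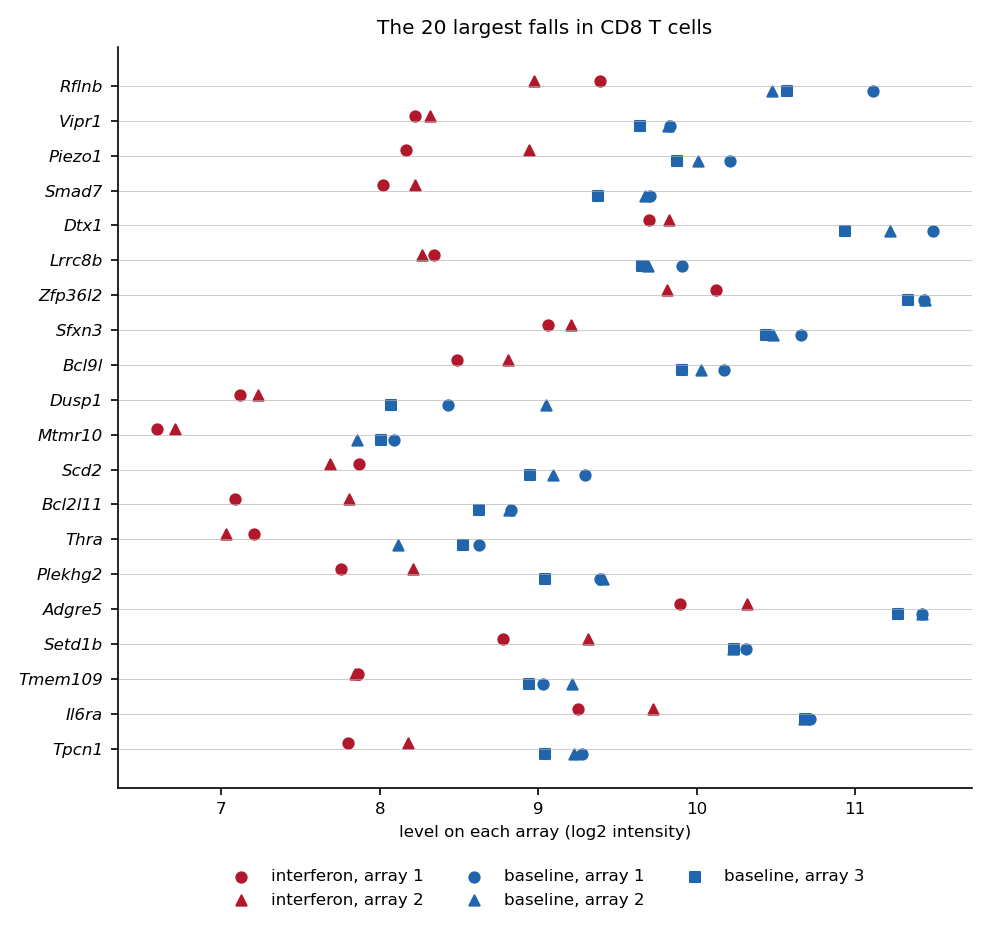
Level of the 20 largest falls on each of the 5 CD8 T cell arrays (log2 intensity), with interferon arrays in red, baseline arrays in blue and symbols for the array number. Red points lie left of all blue points in every gene shown, which was a condition for naming a gene. The gaps are narrower than for the rises, as in Thra with interferon arrays at 7.21 and 7.03 and baseline arrays at 8.63, 8.12 and 8.52.

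Scd2, a desaturase that makes monounsaturated fatty acids, stood at 7.87 and 7.69 on the interferon arrays, against 9.29, 9.09 and 8.95 on the baseline arrays (log2 change -1.33, SE 0.259, adjusted p = 0.00139). Srebf2, the master factor of cholesterol synthesis, stood at 8.80 and 9.12 on the interferon arrays, against 10.19, 9.90 and 9.85 on the baseline arrays (log2 change -1.02, SE 0.236, adjusted p = 0.00933). These were the 2 lowered of 19 genes of cholesterol and fatty acid synthesis (median -0.33), beside 0.319% lowered of all genes, and Fasn, fatty acid synthase, passed the adjusted p at -0.86 (0.00499). Of 17 genes of glycolysis and amino acid transport, Nampt, the enzyme of NAD salvage, was raised at 10.37 and 11.04 on the interferon arrays, against 8.27, 8.30 and 8.19 on the baseline arrays (log2 change 2.46, SE 0.350, adjusted p = 1.29e-05). The amino acid transporter gene Slc43a2 was lowered, at 7.90 and 8.18 on the interferon arrays, against 9.21, 8.99 and 9.17 on the baseline arrays (log2 change -1.08, SE 0.248, adjusted p = 0.00857). Ppa1, a pyrophosphatase, and Clic4, a chloride intracellular channel protein, rose by 2.42 and 2.57.

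Cell death genes rose in 5 of 22 measured members, and 1 was lowered (median 0.22), beside 1.00% and 0.319% of all genes. Mlkl, the executioner of necroptosis, stood at 7.04 and 7.79 on the interferon arrays, against 5.17, 5.24 and 5.08 on the baseline arrays (log2 change 2.25, SE 0.267, adjusted p = 3.93e-07), and Daxx, a death-domain-associated chaperone of nuclear bodies, stood at 10.81 and 11.40 on the interferon arrays, against 8.87, 8.94 and 8.94 on the baseline arrays (log2 change 2.19, SE 0.191, adjusted p = 4.50e-10). Xaf1, an antagonist of the apoptosis inhibitor XIAP, rose by 2.11, Pml, the organiser of nuclear bodies, by 1.58 and Casp4, the sensor of cytosolic lipopolysaccharide, by 1.57. The lowered member was Bcl2l11.

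Of 19 immediate early genes, which respond within minutes to tissue handling, 0 were raised or lowered by limma, with 1 higher and 3 lower at an unadjusted p below 0.05 (median -0.26). Jun, the largest of them, stood at 9.03 and 9.50 on the interferon arrays, against 8.04, 8.77 and 7.15 on the baseline arrays (log2 change 1.28, SE 0.418, adjusted p = 0.106), and the baseline arrays were themselves spread more widely than the 2 interferon arrays. Of 10 heat shock chaperones and 21 genes of cell cycle and replication, 0 were called (medians 0.12 and 0.16), and at an unadjusted p below 0.05 there were 0 chaperones and 2 cell cycle genes, 1 in each direction. Of 20 genes of the unfolded protein and integrated stress response, Herpud1, a component of endoplasmic reticulum degradation, was lowered at 9.27 and 9.03 on the interferon arrays, against 10.28, 10.31 and 10.14 on the baseline arrays (log2 change -1.09, SE 0.154, adjusted p = 1.09e-05), while the chaperone Hspa5 was at 0.82 (adjusted p = 0.0395). Of 11 genes of the glucocorticoid response, Dusp1 and Zfp36l2 were lowered (median -0.52), beside 0.319% lowered of all genes. Tsc22d3, a defining member, stood at 8.93 and 8.59 on the interferon arrays, against 8.93, 8.51 and 9.01 on the baseline arrays. Its log2 change was -0.06 (adjusted p = 0.995). Among 13 clock genes 0 were raised or lowered (median -0.23, with 0 higher and 6 lower at an unadjusted p below 0.05), with Per1 at -0.69 (adjusted p = 0.0349). The 10 receptors shared with NK cells gave 0 calls (median -0.00, with 0 higher and 1 lower at an unadjusted p below 0.05). The part of handling or time of day in these values was not tested.

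The response was set against those of other cell types in the series, each with its own arrays. The macrophage change, here and in the mean of the other 8 types, rests on 1 interferon array. Neutrophils had 2 baseline arrays. Of the 198 raised genes, 90 were raised in all 9 cell types. CD4 T cells raised 178 genes (0.901%), of which 150 were shared, 75.8% of the CD8 T cell genes and 84.3% of their own. Regulatory T cells raised 220 genes (1.11%) and shared 153, which were 77.3% of the CD8 T cell genes and 69.5% of their own. Gamma-delta T cells raised 302 genes (1.53%) and shared 175 (88.4% and 57.9%). CD4 T cells lowered 13 genes (0.0658%) and shared 9, which were 14.3% of the CD8 T cell falls and 69.2% of their own. Regulatory T cells lowered 5 (0.0253%) and shared 4 (6.35% and 80%), and gamma-delta T cells lowered 135 (0.683%) and shared 22 (34.9% and 16.3%). Of the 63 lowered genes, 24 were called in CD8 T cells alone, a count of calls and not a test of a difference. Of the 40 named rises, 31 were raised in all 9 types, and Gzmb was raised in 3.

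The difference itself was tested for each gene, as the CD8 T cell change minus that of another type. Against CD4 T cells 0 genes differed by limma at adjusted p below 0.05 and at least 1 on the log2 scale, in either direction (0%), while 131 genes had an unadjusted p below 0.05 on the higher side and 362 on the lower. The smallest adjusted p was 0.9998, and the median 95% interval reached 0.569 to either side of the estimate. Against regulatory T cells 0 genes differed (0%), with 159 and 338 at an unadjusted p below 0.05 and a smallest adjusted p of 0.142. In single genes the intervals show what remains possible. They are not adjusted for the number of genes tested, and none of the differences below passed the adjusted p. For Mx1 the CD8 T cell change was 0.34 above that of CD4 T cells (95% interval -0.55 to 1.23), and for Eomes 1.00 above (0.26 to 1.74). Gzmb had a change larger by 1.43 than in CD4 T cells (0.14 to 2.73) and by 1.55 than in regulatory T cells (0.26 to 2.84). Vipr1, at -1.29 relative to regulatory T cells (-1.87 to -0.71), had an adjusted p of 0.353.

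Against the mean change in the other 8 types, the change in CD8 T cells was higher by the same rule in 0 genes (0%) and lower in 8 (0.0405%), with 199 and 437 at an unadjusted p below 0.05. Ifi205, a member of the IFI200 family of nuclear DNA-binding proteins, had a change of 0.41 in CD8 T cells, against a mean of 3.37 in the other 8 types (difference -2.96, 95% interval -3.86 to -2.06, adjusted p = 0.00231). On the arrays it stood at 5.51 and 5.42 on the interferon arrays, against 4.72, 5.84 and 4.59 on the baseline arrays, so that the groups overlapped. Il15, the cytokine that sustains memory CD8 T cells and NK cells, had a change of -0.03 in CD8 T cells, against a mean of 1.68 in the other 8 types (difference -1.71, 95% interval -2.36 to -1.05, adjusted p = 0.0228), with all 5 arrays between 5.37 and 5.63. In CD4 T cells and regulatory T cells the Il15 change was 0.26 and 0.52, while NK cells, NKT cells, dendritic cells and macrophages lay between 2.03 and 2.84. Fcgr1, a high-affinity Fc receptor of myeloid cells, had a change of -0.06 in CD8 T cells, against a mean of 1.72 in the other 8 types. That mean combined values of 0.06, 0.26 and 0.24 in CD4, regulatory and gamma-delta T cells and 0.72 in NK cells with 2.38 to 4.06 in the other 4 types. Ifi213 was raised in CD8 T cells, at 12.20 and 12.56 on the interferon arrays, against 10.56, 10.61 and 10.65 on the baseline arrays, and its change of 1.77 was below the mean of 3.21 in the other 8 types (difference -1.44, 95% interval -2.03 to -0.85, adjusted p = 0.0495). Tagap, a GTPase-activating protein of T cells, stood at 10.37 and 10.49 on the interferon arrays, against 11.09, 11.16 and 11.07 on the baseline arrays, with a change of -0.68 in CD8 T cells, against a mean of 0.73 in the other 8 types (difference -1.41, 95% interval -1.85 to -0.96, adjusted p = 0.00231). In CD4 T cells and regulatory T cells the Tagap change was -0.43 and -0.06, against 3.54 in neutrophils. These 8 calls rested on few arrays: leaving out either interferon array left 0, leaving out any baseline array left 2, and baseline array 3 alone left 0.

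**Figure D5:**
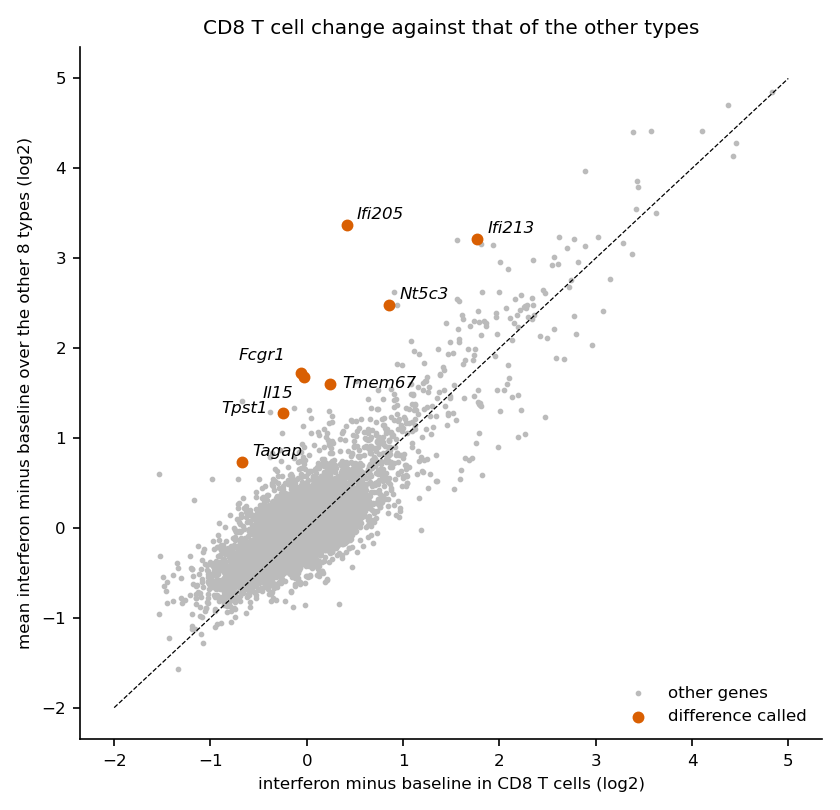
Change in CD8 T cells (interferon minus baseline, log2, horizontal) against the mean change over the other 8 cell types (log2, vertical), 1 point a gene, with a dashed line of equality and the 8 called differences in orange. All 8 lie above the line, with Ifi205 farthest from it at 0.41 in CD8 T cells and 3.37 over the other 8 types. Among the large rises, Ifit3b lies close to the line at 4.83 and 4.85, Ifit1 above it at 3.38 and 4.40, and Gzmb below it at 2.47 and 1.23.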

How the data were processed

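RNA of sorted immune cells was measured on 43 arrays, and the deposited values are intensities per probe set on a linear scale from 4.69 to 22042. Affymetrix Power Tools and RMA, which summarises probes and normalises across arrays, are named per the submitters' processing notes; versions and genome build were not given in the sources used here. Per the labels, RNA was extracted with TriZol and amplified with the Ambion WT Expression Kit.

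The intensities were log2-transformed with no further scaling, and array medians lay between 105 and 125. Of 24922 probe sets, 21425 carried 1 gene symbol, 1399 several and 2098 none. The brightest probe set stood for a gene with more than 1 (921 genes), which left 19752 genes, with symbols of the platform annotation. Precision is limited by the number of arrays, and detection calls were not used.

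All 18 groups (9 cell types, with and without interferon) entered 1 fit with limma (version 3.58.1, R 4.3.3) (25 residual degrees of freedom), and contrasts gave the CD8 T cell change and its difference from CD4 T cells, regulatory T cells and the mean of the other 8 types. The steps were tested on simulated data with independent noise and no preparation or array effect, so that test does not bear on such effects. All p-values are two-sided.

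Named genes were the 40 largest rises and 30 largest falls among called genes whose groups do not overlap, without predicted models and small RNAs, and the 8 largest differences in each direction. Members of 25 gene lists (446 of 501 genes measured, 55 not analysed here) could also be named. The members and lists were chosen with earlier results of these data known. Interferon and baseline arrays share the replicate numbers 1 and 2, but the deviations of same-numbered arrays had correlations of 0.01 and -0.07, so the numbers were not taken as pairs. Alternatives were the preparation term, baseline array 3 alone, CD8 arrays fitted alone, a replicate block, quantile normalisation, array weights, a variance trend, dim genes left out (12349 kept, with a level of at least 7 on at least 2 arrays), the mean of probe sets and each array left out.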

Additional observations from a re-analysis of the deposited data

Results flagged for a closer look

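The results here are those in which the interferon response of CD8 T cells differed from the mean response of the other 8 cell types by a test of the difference itself, fitted with limma over all genes. The differences, CD8 T cells minus the others on the log2 scale, were -2.96 for Ifi205, -1.78 for Fcgr1, -1.71 for Il15, -1.62 for Nt5c3, -1.52 for Tpst1, -1.44 for Ifi213, -1.41 for Tagap and -1.36 for Tmem67. In Nt5c3, a nucleotidase gene, the 5 arrays stood at 8.62 and 8.66 with interferon, against 7.81, 7.79 and 7.74 at baseline, a change of 0.86 in CD8 T cells (adjusted p = 0.116) beside a mean of 2.48 over the other 8 types. It was 1.03 in CD4 T cells and 1.15 in regulatory T cells, and 2.18 to 3.94 in the other 6 types. For Tpst1, which encodes a tyrosine sulfotransferase, the change was -0.24, against a mean of 1.28 over the other 8 types, with 0.06 in CD4 T cells and 0.47 in regulatory T cells. For Tmem67, a gene of the cilium transition zone, it was 0.24, against a mean of 1.60, with 0.49 in CD4 T cells and 1.35 in regulatory T cells. Ifi213 had changes of 1.90 in CD4 T cells and 2.28 in regulatory T cells, beside 1.77 in CD8 T cells. None of the 8 genes passed the test against CD4 T cells or regulatory T cells alone. The CD4 T cell change of Ifi205 was 1.62 and the neutrophil change 5.91, so the other 8 types were themselves far from alike. In the alternative with baseline array 3 alone in every cell type, neutrophils were left out, as they had no such array. Each of the 8 had the same sign in all 14 alternatives, and Ifi205 and Tagap were called in 10 of them and the others in 6 or 7.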

How the results depend on the processing

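Of the 40 named rises, 39 were called in all 15 alternatives and Gzmb in 14, and no named rise or fall changed sign. The sign was fixed in advance where an alternative only left out arrays, as named genes had no overlap between groups. The count of raised genes was 125 against baseline array 3 alone and ran from 152 to 199 with each array left out. The count of lowered genes was 5 with baseline array 3 alone in CD8 T cells, 18 with it alone in every cell type and 41 without interferon array 1, and ran from 41 to 78 with each array left out. With the replicate number as a block there were 219 raised and 70 lowered genes, 1 gene was higher and 1 lower than in regulatory T cells, and 9 were lower than in the other 8 types. The 8 genes lower than in the other 8 types became 0 with baseline array 3 alone in CD8 T cells or in every cell type, 13 with array weights, 2 without baseline array 1, 2 or 3, and 0 without either interferon array, a range of 0 to 2. Against regulatory T cells the higher count was 1 with the preparation term, 3 with array weights and 1 without interferon array 2, and the lower count 1 with quantile normalisation, 15 with array weights and 1 without interferon array 2, with a range of 0 to 1 over the arrays left out in both directions. Neutrophils had no baseline array 3 and were left out of the fit with that array alone in every cell type. The comparison there was thus not with all 8 other types. Array weights did not converge fully. Against CD4 T cells the counts were 0 in all alternatives. The cause of these moves was not tested, except that fewer arrays widen the standard error. For dim genes, at levels near the lowest of the arrays, no detection calls bound the values here.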

Other observations

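Of the 198 raised genes, 5 were raised in CD8 T cells and called in no other cell type. They are named here after their values were seen: Lysmd2, Tnp2, the small nucleolar RNAs Snora2b and Snord53, and the predicted gene Gm12238. Lysmd2 stood at 7.94 and 8.46 on the interferon arrays, against 7.03, 7.09 and 7.38 on the baseline arrays (log2 change 1.03, adjusted p = 0.00458), and its mean change in the other 8 types was 0.47. Gm12238 stood at 8.75 and 7.05 on the interferon arrays, against 6.80, 6.80 and 6.59, so that array 1 carried most of its change of 1.17. None of the 5 differed from the other 8 types by the test of the difference.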
